A study of Rattus norvegicus with 10 samples.

Results

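The livers of 10 male Wistar rats with cirrhosis induced by inhaled CCl4 were compared here by the level of 1 clock gene, Bmal1. All 10 rats of the series took part. The groups were chosen by a measured value, so the rats were sorted and not assigned. A liver was placed in the high-Bmal1 group when the log2 signal of Bmal1 was above 7.0 and in the low-Bmal1 group when it was below 6.0, which gave 5 livers and 5 livers. Of the 5 rats injected intravenously each week for 4 weeks with 10 mg/kg of CVX-060, an agent that binds and blocks angiopoietin-2, 3 (rats 1, 2 and 3) were high and 2 (rats 4 and 5) were low. Of the 5 rats given the vehicle on the same schedule, 2 (rats 1 and 2) were high and 3 (rats 3, 4 and 5) were low. In both treatments the high livers therefore carried the lower replicate numbers of the labels, and what those numbers stand for (cage, day or order of collection) is not given in the sources used here, nor is the hour at which each liver was taken. RNA of whole liver was measured on a rat 3' expression array, 1 array per rat, and a level is a normalized log2 signal, so that a difference of 1 is a doubling. A difference is given as high minus low with treatment as a covariate, with its standard error (SE). No healthy liver was part of the series. Whole liver mixes cell types, so fewer cells of a type and less RNA per cell cannot be told apart.

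The mammalian clock is a loop of transcription factors that runs in nearly every liver cell. BMAL1 pairs with CLOCK or its relative NPAS2 and switches on genes that carry an E-box, among them the Per and Cry genes, whose proteins come back to block the pair, and Nr1d1, Nr1d2 and Dbp. The nuclear receptors NR1D1 and NR1D2 (REV-ERB alpha and beta) repress, and the ROR receptors activate, Bmal1, Npas2, Clock and Nfil3 through a shared binding site, so that these genes usually peak at the time of day when Dbp, Per3 and the REV-ERB genes are lowest. DBP, TEF and HLF activate D-box genes, and NFIL3 represses the same sites.

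The start regions of 5 of these genes are shown because each stands for an arm of that loop. They are the 250 bases before the annotated start in RefSeq (rat build GRCr8), each written on the strand of its gene, and capitals mark matches on either strand to CACGTG (E-box), AGGTCA (the REV-ERB and ROR half-site) or TTANGTAA (D-box).
Bmal1, chr1:176766078-176766327, plus strand: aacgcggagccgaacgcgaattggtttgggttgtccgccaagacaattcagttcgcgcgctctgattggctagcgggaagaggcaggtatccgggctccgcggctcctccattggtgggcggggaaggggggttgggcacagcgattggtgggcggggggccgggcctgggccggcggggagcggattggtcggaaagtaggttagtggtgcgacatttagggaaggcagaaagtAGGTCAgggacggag
Nr1d2, chr15:9954784-9955033, plus strand: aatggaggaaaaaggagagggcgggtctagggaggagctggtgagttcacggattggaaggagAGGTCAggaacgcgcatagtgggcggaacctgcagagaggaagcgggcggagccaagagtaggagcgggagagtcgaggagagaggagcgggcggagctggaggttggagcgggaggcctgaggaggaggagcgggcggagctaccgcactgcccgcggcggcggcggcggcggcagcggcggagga
Tef, chr7:115206577-115206826, plus strand: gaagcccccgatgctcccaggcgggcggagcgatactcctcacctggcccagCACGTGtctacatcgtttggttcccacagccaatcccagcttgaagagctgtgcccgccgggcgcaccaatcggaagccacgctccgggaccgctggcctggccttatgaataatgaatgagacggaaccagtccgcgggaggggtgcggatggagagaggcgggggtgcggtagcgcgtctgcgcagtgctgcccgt
Per2, chr9:99496994-99497243, minus strand: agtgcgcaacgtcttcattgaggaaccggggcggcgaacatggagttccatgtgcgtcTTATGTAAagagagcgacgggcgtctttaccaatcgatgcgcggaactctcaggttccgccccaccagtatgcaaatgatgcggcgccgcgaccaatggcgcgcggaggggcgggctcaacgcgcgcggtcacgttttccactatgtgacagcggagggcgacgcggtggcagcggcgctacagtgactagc
Dbp, chr1:105312006-105312255, plus strand: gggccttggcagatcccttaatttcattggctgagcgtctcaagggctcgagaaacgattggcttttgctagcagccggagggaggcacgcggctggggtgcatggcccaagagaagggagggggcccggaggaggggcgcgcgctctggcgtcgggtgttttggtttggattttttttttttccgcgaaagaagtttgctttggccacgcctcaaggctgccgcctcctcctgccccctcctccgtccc
The half-site of Bmal1 began 15 bases before the start and that of Nr1d2 187 bases before it. The E-box of Tef lay 198 bases and the D-box of Per2 192 bases before the start. The window of Dbp held none of the 3 motifs. Among 33469 such windows of all rat genes, 5.59% held the E-box, 14.1% the half-site and 2.04% the D-box. Of the 19 measured clock activators, repressors and PAR bZIP genes, 17 had a window. The E-box was found in those of Bhlhe40, Bhlhe41, Nr1d1 and Tef (21.1% of the windows of the set). The half-site was found for Nr1d2 alone and the D-box for Per2 alone (5.26% each). The windows of Clock, Npas2 and Nfil3 held no half-site. These matches describe the sequence only.

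Bmal1 chose the groups, so its values are given as a description with no test. Its log2 signal was 7.90 and 7.95 in vehicle rats 1 and 2 and 8.38, 8.75 and 8.17 in CVX-060 rats 1, 2 and 3. It was 5.13, 4.87 and 4.88 in vehicle rats 3, 4 and 5 and 5.75 and 5.21 in CVX-060 rats 4 and 5. The group means were 8.23 ± 0.35 and 5.17 ± 0.36 (SD, n = 5 each), and the gap between vehicle rat 1, the lowest high liver, and CVX-060 rat 4, the highest low liver, was 2.15. No liver lay between the groups.

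Outside Bmal1, 42 of 14216 genes (0.295%) passed an adjusted p of 0.05 in limma, 24 higher (0.169%) and 18 lower (0.127%) in the high-Bmal1 livers. Of the 42, 14 differed by more than 2-fold, 37 had high and low values that did not overlap, against 2.63% of all genes (0.971% higher and 1.66% lower), and 34 were above the array background in all 10 rats. Each of the 42 had the same sign in vehicle and in CVX-060 rats, and each gave the smallest value that an exact two-sided permutation of the group labels within treatment allows, p = 0.01. The 42 were called from the same values and the same difference. Their lack of overlap, shared sign and exact p are therefore not separate evidence. Before adjustment, 1805 genes (12.7%) had a p under 0.05. The number of calls moved strongly with single livers. It was 345 without vehicle rat 2, 13 without vehicle rat 5, 6 without CVX-060 rat 1, 5 without CVX-060 rat 2, 6 without CVX-060 rat 4 and 1 without CVX-060 rat 5, and between 30 and 56 without any of the other 4 rats. In all of these fits the 42 genes kept their sign and an unadjusted p under 0.05. They had been chosen on all 10 livers, which these fits share but for 1, so this is not separate evidence either. For the 37 without overlap the sign could not change when a rat was left out.

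For its own analysis the paper kept 2 replicates of each treatment, chosen by quality control and a principal component plot. It does not name them, and all 10 arrays were used here. The array signals of the 10 livers correlated with each other at 0.967 to 0.992, and the array medians lay between 5.52 and 5.57. On the first principal component (35.4% of the variance), the livers of vehicle rat 2 (a high liver) and CVX-060 rat 5 (a low liver) scored 34.5 and 35.5, above all others. Cyp2c11, a P450 typical of male rat liver, was at 8.99 in vehicle rat 2 and 11.42 in CVX-060 rat 5, against 12.69 to 13.93 in the others. Cyp2c12, typical of female liver, was at 12.71 and 12.02 in these rats, against 7.11 to 9.79. Without both rats, 12 genes passed (5 higher and 7 lower), of which 4 were among the 42, and all 42 kept their sign and an unadjusted p under 0.05. The 42 had been chosen on data that held the same remaining livers, so their sign and p here are not separate evidence.

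**Figure D1:**
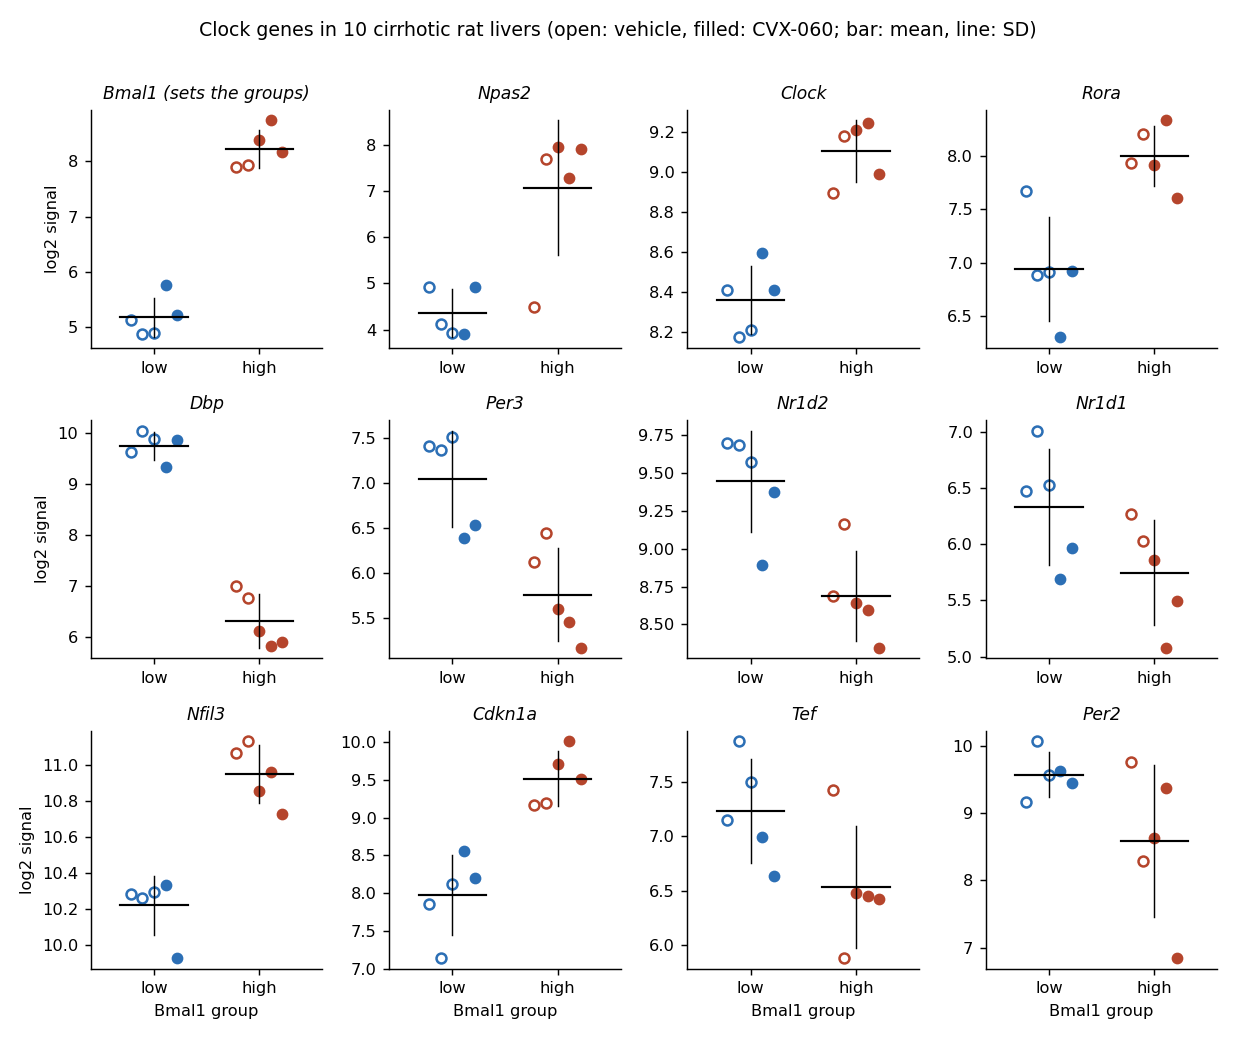
Log2 signal of Bmal1 and 11 clock genes in each of the 10 livers, by Bmal1 group (open points vehicle rats, filled points CVX-060 rats, horizontal bar the mean and vertical line the SD of 5 livers). Dbp, Clock, Nfil3 and Cdkn1a show no overlap between the groups, and vehicle rat 1 lies among the low livers for Npas2.

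Among the clock activators, Clock rose in the high-Bmal1 livers, and Npas2 and Rora were higher without passing the adjusted p. Clock, the usual partner of BMAL1, was at 8.90 and 9.18 in the high vehicle rats and 9.21, 9.25 and 8.99 in the high CVX-060 rats. In the low livers it was at 8.41, 8.18 and 8.21 in vehicle rats and 8.60 and 8.41 in CVX-060 rats. The groups did not overlap, and the difference was 0.71 (SE 0.09, 1.64-fold, adjusted p = 0.0169), with 0.77 in vehicle and 0.65 in CVX-060 rats. Without vehicle rat 2 and CVX-060 rat 5, it was 0.59.

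Npas2, which can stand in for CLOCK, was at 7.71 in vehicle rat 2 and at 7.96, 7.29 and 7.92 in CVX-060 rats 1, 2 and 3, but at 4.50 in vehicle rat 1. The low livers lay between 3.90 and 4.93, all below the array background, as did vehicle rat 1. The liver of vehicle rat 1 was thus high for Bmal1 and low for Npas2, and the groups overlapped. The difference was 2.54 (SE 0.59, adjusted p = 0.126, exact p = 0.02). Against a low liver taken at its array background, which is the bound that dim signals allow, the mean of the high livers was at least 2.60-fold higher, with 4 of the 5 above background.

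Rora, the ROR receptor that is best measured here, was between 7.61 and 8.34 in the high livers and between 6.30 and 6.92 in 4 of the low livers. The fifth low liver, that of vehicle rat 3, was at 7.68 and so inside the high range. The difference was 1.13 (SE 0.22, adjusted p = 0.0712, exact p = 0.01). Rorb and Bmal2, the other measured activators, were below background in all 10 livers.

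Dbp, the clock output gene whose protein acts on D-box genes, fell most. Its log2 signal was 7.01 and 6.76 in the high vehicle rats and 6.12, 5.84 and 5.91 in the high CVX-060 rats. It was 9.62, 10.04 and 9.88 in the low vehicle rats and 9.33 and 9.86 in the low CVX-060 rats. More than 2 log2 units separated the groups. The difference was -3.30 (SE 0.17, 95% interval -3.68 to -2.93, adjusted p = 6.0e-05), which leaves 0.10 of the signal. Dbp was the gene with the smallest p of all, and it passed in each of the 22 alternative fits that measured it one probe set per gene, with differences between -3.64 and -2.96 in those that compared the groups. Dbp and Npas2 were named with Bmal1 as markers of this split, with earlier results of these data known. Their tests are therefore not independent of the choice of groups.

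Nfil3, the repressor at the sites that DBP activates, moved the opposite way. It was at 11.07 and 11.13 in the high vehicle rats and 10.86, 10.96 and 10.73 in the high CVX-060 rats. The low livers were at 10.28, 10.26, 10.29, 10.34 and, in CVX-060 rat 5, 9.93. No low liver reached the high range, and the difference was 0.77 (SE 0.09, 1.71-fold, adjusted p = 0.0167), with 0.82 in vehicle and 0.72 in CVX-060 rats.

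Tef and Hlf, the other PAR bZIP genes, did not pass. Tef was between 5.88 and 7.43 in the high and between 6.63 and 7.88 in the low livers (difference -0.61, SE 0.27, adjusted p = 0.398). A second, brighter probe set of Tef separated the groups, at 7.13 to 7.96 in the high and 8.30 to 8.71 in the low livers, with a difference of -0.80. A dim probe set of Tef gave -0.33 with overlapping groups. Hlf differed by -0.06 (SE 0.34), with a range of 7.33 to 9.10 in the high livers that covered nearly all of the low ones, and its sign turned when vehicle rat 2 or vehicle rat 5 was left out. Other probe sets of Hlf gave -0.41, -0.13 and, in a dim one, 0.07, all with overlapping groups.

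**Figure D2:**
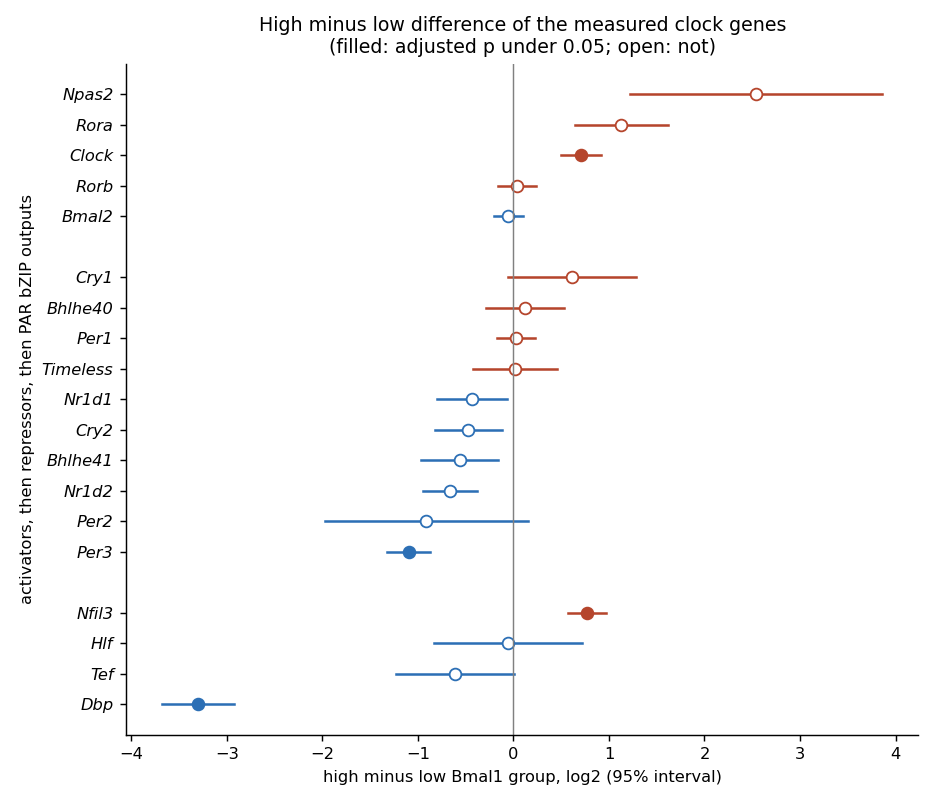
High minus low difference (log2, with its 95% interval) of the 19 measured clock activators, repressors and PAR bZIP outputs. Filled points passed an adjusted p of 0.05, which were Clock (0.71), Per3 (-1.10), Nfil3 (0.77) and Dbp (-3.30), and open points did not.

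Of the 10 measured clock repressors, Per3 alone passed, against 0.295% of all genes. In the high-Bmal1 livers 6 were lower and 4 higher, and the median difference was -0.45 against 0.00 over all genes. Timeless was above background in 1 of 10 livers. Per3 was at 6.12 and 6.45 in the high vehicle rats and 5.60, 5.46 and 5.18 in the high CVX-060 rats. In the low livers it was at 7.41, 7.37 and 7.51 in vehicle rats and 6.39 and 6.53 in CVX-060 rats. Within each treatment the groups were apart, while across treatments CVX-060 rat 4 lay just below vehicle rat 2. The difference was -1.10 (SE 0.10, adjusted p = 0.0078). The 3 high CVX-060 rats were below the array background, so these signals do not settle the size of this difference. A second probe set, at 4.79 to 5.11 and so below background in all livers, gave -0.11.

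Nr1d2, which codes for REV-ERB beta, was at 8.69 and 9.16 in the high vehicle rats and 8.64, 8.59 and 8.35 in the high CVX-060 rats, against 9.69, 9.68 and 9.57 in the low vehicle rats and 8.89 and 9.38 in the low CVX-060 rats. Within each treatment its groups did not overlap either. The difference was -0.66 (SE 0.13, adjusted p = 0.0685, exact p = 0.01), and a second probe set gave -0.72. Nr1d1, which codes for REV-ERB alpha, was dim here, with 7 of 10 livers above background and a difference of -0.43 (SE 0.16, adjusted p = 0.311).

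Of the other repressors 0 passed. Per2 was between 9.16 and 10.06 in the low livers but ran from 6.85 in CVX-060 rat 3 to 9.76 in vehicle rat 1 in the high livers (difference -0.91, SE 0.48, adjusted p = 0.478), and a second probe set gave -0.22. Cry2 differed by -0.47 (SE 0.15, adjusted p = 0.232) and Bhlhe41 by -0.56 (SE 0.18, adjusted p = 0.223). Cry1, which also carries REV-ERB and ROR sites, had the opposite sign at 0.61 (SE 0.30, adjusted p = 0.439), with 8.27 to 9.47 in the high and 7.45 to 8.91 in the low livers. Per1 (0.03, SE 0.09) and Bhlhe40 (0.12, SE 0.18) differed by less than the spread between livers, and their sign turned when single rats were left out. The values of Per1 lay between 9.01 and 9.38 in all 10 livers, and the 95% interval of its difference, -0.17 to 0.23, holds no difference as large as the measured one of Per3.

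CVX-060 was a covariate, and its own term (CVX-060 minus vehicle at a given Bmal1 group) passed in 0 genes, with 595 (4.19%) at an unadjusted p under 0.05. The smallest adjusted p of that term, 0.0741, belonged to Per3. Per3 was lower by 0.87 in the high and by 0.97 in the low livers of CVX-060 rats than in those of vehicle rats, and every CVX-060 liver lay below every vehicle liver of its group. The same held for Nr1d1 (term -0.76) and Nr1d2 (term -0.45), while for Dbp (term -0.59) it held in the high livers alone. The adjusted p of those 3 terms was 0.99. Among the other clock genes, it held in the high livers alone for Klf9, Nfil3, Por and Tspan4. In the low livers alone it held for Bhlhe40, Hlf, Insig2, Mreg, Nampt, Tef and Rorb, the last of which was below background in all livers. Only genes lower in CVX-060 rats were listed in this way, so the list is one-sided. For Cdkn1a (term 0.62) every CVX-060 liver lay above every vehicle liver of its group. Clock and Pfkfb3 did so in the low livers alone. The share of all genes with such separation was not counted. In both treatments the means of Dbp, Per3, Nr1d1 and Nr1d2 were lower in the high livers than in the low ones. For Nr1d1 the groups overlapped in CVX-060 rats, where high rat 1 was at 5.86 and low rat 4 at 5.69.

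Further clock-controlled genes split both ways. Of 25 measured, 1 passed, against 0.295% of all genes. A difference above 0 was found in 12 and below 0 in 13, and the median was -0.02. Cdkn1a, the cell cycle inhibitor p21, was at 9.16 and 9.19 in the high vehicle rats and 9.71, 10.01 and 9.51 in the high CVX-060 rats. It was at 7.85, 7.14 and 8.12 in the low vehicle rats and 8.56 and 8.19 in the low CVX-060 rats. No value overlapped, and Cdkn1a rose by 1.42 (SE 0.18, 2.67-fold, adjusted p = 0.0167). A second probe set, which was dimmer, gave 1.35 and also did not overlap.

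Insig2, a brake on sterol synthesis, was at 11.22 to 12.18 in the high and 10.56 to 11.12 in the low livers (difference 0.89, SE 0.19, adjusted p = 0.0937), and a second probe set of like brightness gave 0.69 with overlapping groups. Slc45a3 differed by 0.46 (adjusted p = 0.303). The ubiquitin protease Usp2 was at 7.24 to 8.63 in the high and 8.68 to 9.53 in the low livers (difference -0.97, SE 0.31, adjusted p = 0.222), and its second probe set also separated the groups, with a difference of -0.85. Por, the reductase that feeds electrons to P450 enzymes, was at 8.66 to 9.53 in the high and 9.59 to 10.12 in the low livers (difference -0.64, SE 0.16, adjusted p = 0.15), and a brighter second probe set gave -0.50 with overlapping groups. Pfkfb3 (-0.67, adjusted p = 0.211) and Gys2, the glycogen synthase of liver (-0.73, adjusted p = 0.332), had overlapping groups. The other 18 (Mreg, Wee1, Cys1, Nampt, Kcnk5, Tsc22d3, Alas1, Abcg5, Klf10, Klf9, Gramd4, Tspan4, Noct, Elovl3, Id2, Pnpla2, Lpin1 and Rgs16) lay between -0.93 (Kcnk5) and 0.62 (Mreg), each with an unadjusted p above 0.05. Of 11 measured clock kinases and ubiquitin ligases, Usp2 among them, 0 passed, and 1 had an unadjusted p under 0.05, against 12.7% of all genes.

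**Figure D3:**
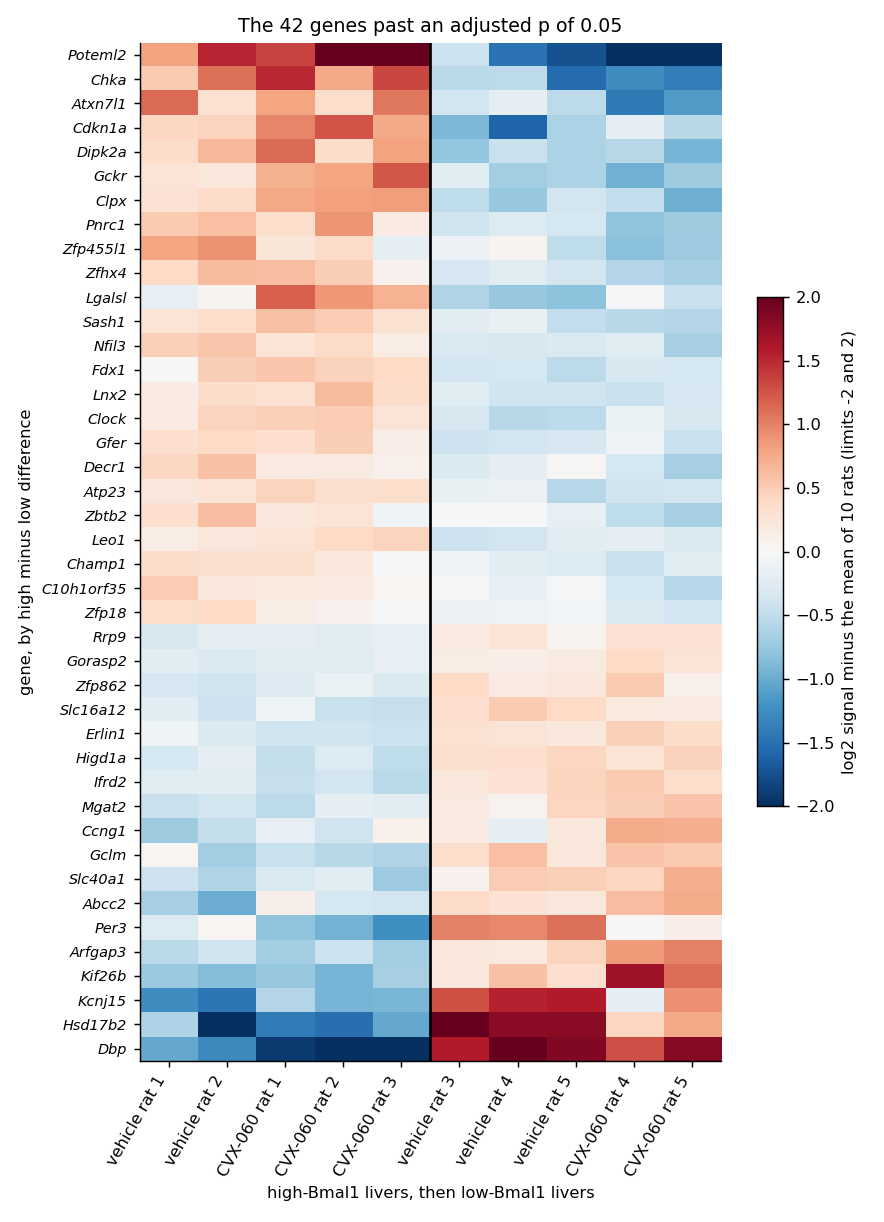
The 42 genes past an adjusted p of 0.05, each row a gene and each column a liver (high-Bmal1 livers left of the line), coloured by log2 signal minus the gene's mean over 10 rats and limited at -2 and 2. Poteml2 (3.17) is at the top and Dbp (-3.30) at the bottom, and the colours turn at the line in nearly every row.

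Beyond the clock, Chka was 1 of the 24 genes that rose. Chka, choline kinase alpha, the first enzyme of phosphatidylcholine synthesis from choline, was at 9.84 and 10.41 in the high vehicle rats and 10.81, 10.06 and 10.64 in the high CVX-060 rats. The low livers were at 8.77, 8.78 and 7.77 in vehicle rats and 8.06 and 7.92 in CVX-060 rats. More than 1 log2 unit lay between the groups, and Chka rose by 2.10 (SE 0.27, 4.29-fold, adjusted p = 0.0167). Gckr, the protein that holds glucokinase in the nucleus, rose by 1.26 (SE 0.21, adjusted p = 0.0451), from 9.05 to 9.78 in the low livers to 10.23 to 11.26 in the high ones.

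Clpx, a subunit of the matrix protease ClpXP, was at 10.71 to 11.25 in the high and 9.44 to 10.04 in the low livers and rose by 1.21 (SE 0.15). Fdx1, the ferredoxin of steroid-making P450 enzymes, rose by 0.74, Decr1, a reductase in the oxidation of unsaturated fatty acids, by 0.65, Gfer, a sulfhydryl oxidase first known as a factor of liver regeneration, by 0.67, and Atp23 by 0.64. None of these 5 had overlapping groups, and their adjusted p lay between 0.0167 and 0.0403.

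Poteml2 was at 6.82, 7.54, 7.37, 8.22 and 8.02 in the high livers and 5.59, 4.53, 4.27, 4.01 and 3.81 in the low livers, where it was below background throughout (measured difference 3.17, SE 0.37, adjusted p = 0.0167), so that it was at least 3.72-fold higher in the high livers. As a member of a gene family it may share probes with close copies. Atxn7l1 rose by 1.54, Dipk2a by 1.32, Pnrc1, a nuclear receptor coactivator, by 1.06, Zfp455l1 by 0.98, Zfhx4 by 0.93, Lgalsl by 0.92 and Sash1 by 0.82. Of these, Zfp455l1 and Lgalsl had overlapping groups. Dimmer probe sets of Dipk2a gave -0.06 and -0.13, one of Atxn7l1 gave 0.02, one of Pnrc1 -0.02 and 1 of Zbtb2 -0.11. The remaining genes that rose, Lnx2 (0.72), Zbtb2 (0.62), Leo1 (0.57), Champ1 (0.53), C10h1orf35 (0.52) and Zfp18 (0.44), changed by less than 2-fold, and Zbtb2 had overlapping groups.

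Hsd17b2 and Kcnj15 were among the 18 genes that fell. Hsd17b2, which inactivates estradiol and testosterone, was at 10.40 and 8.71 in the high vehicle rats and 9.61, 9.51 and 9.99 in the high CVX-060 rats. The low livers were at 13.06, 12.82 and 12.81 in vehicle rats and 11.45 and 11.78 in CVX-060 rats. The groups were apart in both treatments, and Hsd17b2 fell by 2.63 (SE 0.36, adjusted p = 0.0207), by 3.34 in vehicle and by 1.91 in CVX-060 rats. The female-biased gene list that holds it had a median of 0.19 in the other direction, with 11 of its 16 measured members above 0.

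Kcnj15, an inwardly rectifying potassium channel, was below background in all 5 high livers, at 4.84 to 5.70, and above it in all 5 low livers, at 6.11 to 7.87 (measured difference -1.99, SE 0.32, adjusted p = 0.0451). Taken against the background, it was at least 2.94-fold higher in the low livers. A second probe set of Kcnj15, at 4.09 to 4.28 in all livers, did not separate them (-0.02). Kif26b was at 4.26 to 4.52 in the high livers, all below background, and at 5.39 to 6.87 in the low ones, of which 3 were above background (measured difference -1.68, SE 0.20, adjusted p = 0.0167), and the bound was at least 1.16-fold. Zfp862 also passed as lower but was below background in all 10 livers, so no size is given.

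Among the other genes that fell, Abcc2, the export pump for conjugated bilirubin, was at 10.30 and 9.97 in the high vehicle rats and 11.07, 10.60 and 10.59 in the high CVX-060 rats, against 11.18 to 11.69 in the low livers (difference -0.9997, SE 0.12, adjusted p = 0.0167). Slc40a1, the iron exporter ferroportin, fell by 0.93 (SE 0.13, adjusted p = 0.0219), although its brighter probe sets gave -0.56 and -0.29 with overlapping groups. Gclm, a subunit of the enzyme that starts glutathione synthesis, was at 10.03 to 10.76 in the high and 10.96 to 11.32 in the low livers (difference -0.90, SE 0.15, adjusted p = 0.0451). Ccng1, cyclin G1, fell by 0.77 with overlapping groups, Ifrd2 by 0.72, Higd1a, a small mitochondrial protein, by 0.71, Slc16a12, a creatine transporter, by 0.62 and Rrp9, a protein of nucleolar RNA processing, by 0.45.

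Of the 42 genes, 17 had 1 or more other probe sets, 26 in all. The sign was the same in 21 of those 26, and in 10 the high and low livers did not overlap in the same direction.

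**Figure D4:**
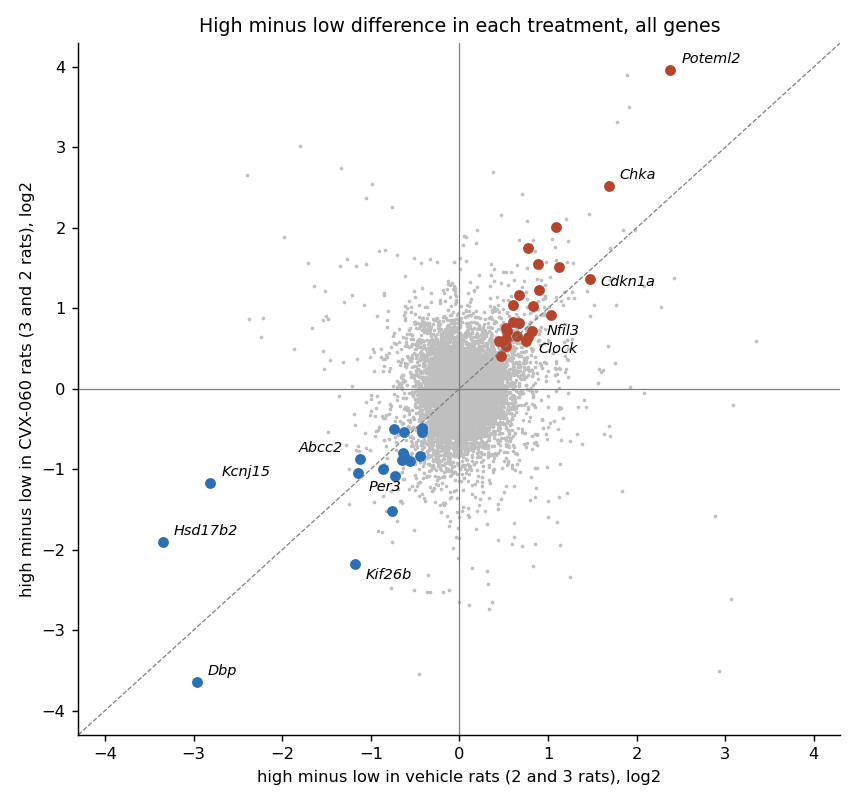
High minus low difference in vehicle rats (horizontal, 2 high and 3 low livers) against that in CVX-060 rats (vertical, 3 high and 2 low livers) for all 14216 genes, log2, with the 42 called genes in red (higher) and blue (lower). The called genes lie in the lower left and upper right parts of the plot, with Dbp at -2.96 and -3.64.

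The difference between high and low livers was also compared between the treatments. The interaction of Bmal1 group and treatment passed in 0 genes in limma (lowest adjusted p 0.0999), with 1640 genes (11.5%) at an unadjusted p under 0.05. Without vehicle rat 1 the count was 441 and without CVX-060 rat 4 it was 1. In vehicle rats alone 2 genes passed, both among the 42 genes, and in CVX-060 rats alone 188 passed, of which 17 were among the 42.

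Most genes of the endoplasmic reticulum (ER) and Golgi lists had a difference below 0. These lists were drawn up after the values had been seen, so their counts are a description. Of 43 measured genes of ER to Golgi transport, 39 had a difference below 0, 29 of them at an unadjusted p under 0.05 against 7.04% of all genes, and the median was -0.31. Arfgap3, a regulator of coated vesicles at the Golgi, was at 8.57 and 8.72 in the high vehicle rats and 8.44, 8.69 and 8.44 in the high CVX-060 rats. It was at 9.33, 9.32 and 9.56 in the low vehicle rats and 9.97 and 10.12 in the low CVX-060 rats, and it fell by 1.14 (SE 0.15, adjusted p = 0.0167) with no overlap. Gorasp2, a Golgi stacking protein, was at 9.80 to 9.93 in the high and 10.22 to 10.48 in the low livers and fell by 0.47 (SE 0.06, adjusted p = 0.0167).

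Other members did not pass. Sec23b, of the COPII coat that buds vesicles from the ER, was at 10.26 to 10.77 in the high and 11.01 to 11.62 in the low livers (difference -0.81, SE 0.14, adjusted p = 0.0596). Stx5 (-0.49, adjusted p = 0.0615) and Tmed2 (-0.59, adjusted p = 0.0636) also had groups that did not overlap. Outside the list, Mgat2, a Golgi enzyme that adds N-acetylglucosamine to N-glycans, fell by 0.73, and Erlin1, of the ER membrane, by 0.64, with adjusted p of 0.0207 and 0.022.

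Of 32 measured genes of ER protein folding and the unfolded protein response, 0 passed and 29 had a difference below 0. Of these 29, 23 had an unadjusted p under 0.05, against 7.04% of all genes. The median was -0.48. The mean log2 level over the 32 genes was between 9.85 and 10.10 in the high livers and between 10.18 and 10.94 in the low ones. Dnajb9, an ER co-chaperone, was at 10.11 to 10.87 in the high and 11.23 to 11.94 in the low livers (difference -1.03, SE 0.18, adjusted p = 0.0596). Hspa5, the main ER chaperone BiP, was at 12.70 to 13.00 and 13.07 to 13.92 (difference -0.58, SE 0.14, adjusted p = 0.144). Derl1 (-0.56), Atf6 (-0.64) and Manf (-0.84) likewise had no overlap, while Ero1b (-0.88) had. Of the 3 members above 0, Xbp1, a transcription factor of this response, had the largest difference (0.36, adjusted p = 0.599). The median of this list was -0.31 in vehicle rats and -0.64 in CVX-060 rats. The broader list of heat shock and chaperone genes, which also holds Hspa5 and Manf, had 16 of 27 measured members below 0, 10 of them at an unadjusted p under 0.05, with a median of -0.17, and 0 passed.

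**Figure D5:**
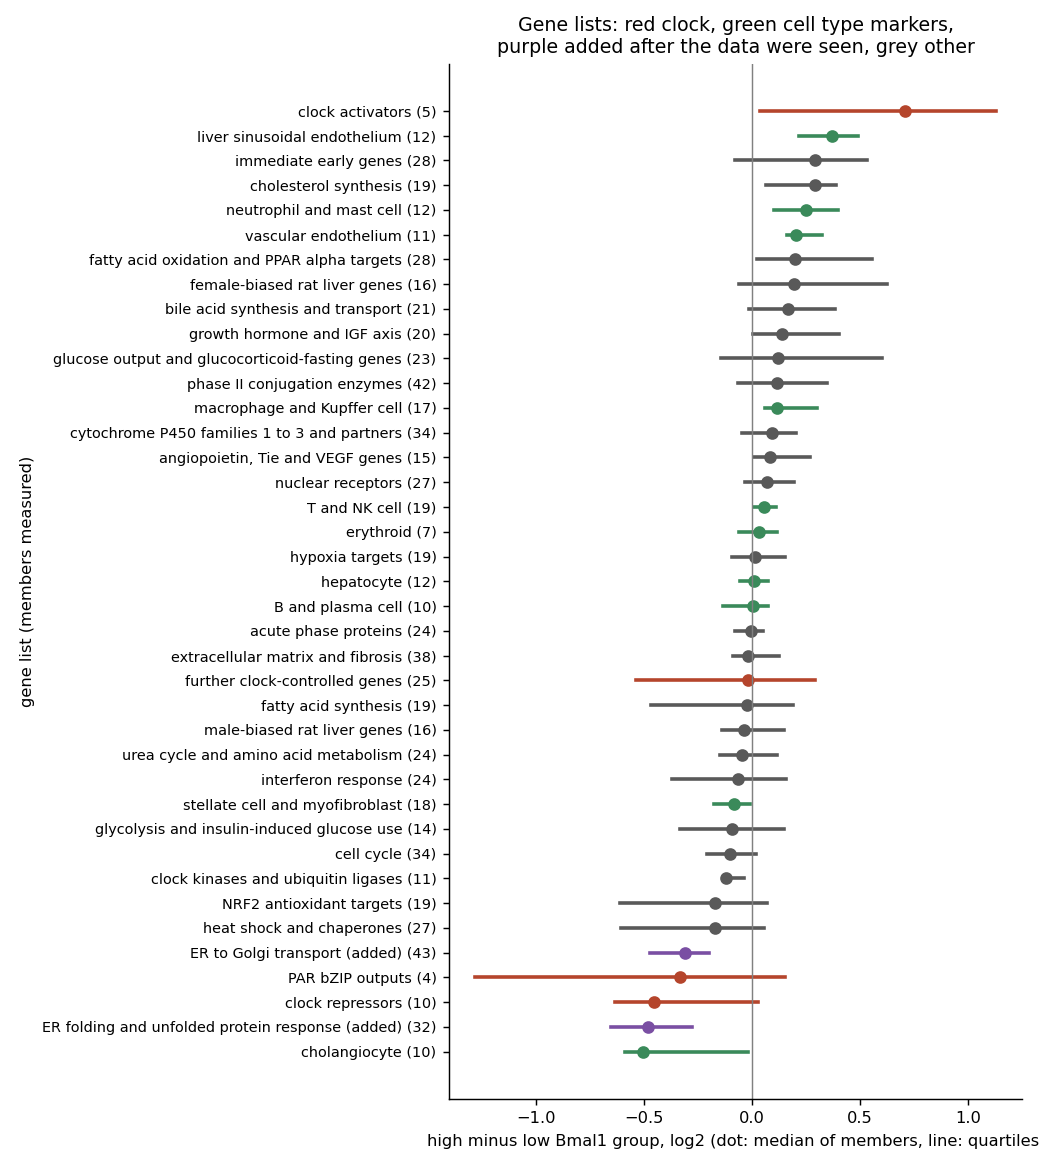
Median (dot) and quartiles (line) of the high minus low difference, log2, over the measured members of 39 gene lists, with the number of members in brackets. Clock activators (0.71) lie at the top, and cholangiocyte markers (-0.51), ER folding genes (-0.48) and clock repressors (-0.45) at the bottom, with all genes at a median of 0.00.

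Among the other pathway lists, single members passed, against 0.295% of all genes. Decr1 was the 1 gene of 28 of fatty acid oxidation (21 above 0, median 0.20), with Etfdh at 0.39 and Ehhadh at 0.81 not passing (adjusted p = 0.181 and 0.193). Gclm was the 1 gene of 19 NRF2 targets (13 below 0, median -0.17), with Txnrd1 at -0.57 and Srxn1 at -1.34 (adjusted p = 0.0599 and 0.187). Abcc2 was the 1 gene of 21 of bile acid synthesis and transport (15 above 0, median 0.17), and Gckr that of 14 of glycolysis, where Slc2a2, the glucose transporter GLUT2, was at 12.42 to 12.59 in the high and 12.80 to 12.95 in the low livers (difference -0.36, SE 0.07, adjusted p = 0.0712). The median of the NRF2 list was 0.17 in vehicle rats and -0.60 in CVX-060 rats, and that of the bile acid list -0.10 and 0.45.

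In lists with no call, cholesterol synthesis had 18 of 19 members above 0 (median 0.29, -0.01 in vehicle and 0.54 in CVX-060 rats). Fatty acid synthesis had a median of -0.03, with Acaca, acetyl-CoA carboxylase, at 9.15 to 10.06 in the high and 10.18 to 10.54 in the low livers (difference -0.60, adjusted p = 0.164). Immediate early genes had 17 of 28 above 0 (median 0.29), led by Ier5 (1.56, SE 0.32, adjusted p = 0.0879), Gadd45a (0.996) and Myc (0.88). The growth hormone list had 15 of 20 above 0 (median 0.14), with Socs2 at 1.56, Cish at 1.42 and Stat5b at 0.39, of which none passed. Ephx2, soluble epoxide hydrolase, was at 9.33 to 10.64 in the high and 8.84 to 9.21 in the low livers (0.85, adjusted p = 0.15).

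Markers of liver cell types were compared in the same way, and 0 of them passed. Of 12 hepatocyte markers, 11 were above background in every liver. The probe set used for Fgb was below it in all, so it gives no level for that gene. The 12 markers had a median difference of 0.01. Their mean log2 level was between 11.77 and 11.88 in the high and between 11.73 and 11.82 in the low livers. All 12 measured markers of the liver sinusoidal endothelium were above 0 (median 0.37), against 50.3% of all genes, and 6 had an unadjusted p under 0.05, against 5.66%. Their mean level was between 8.31 and 8.67 in the high and between 7.73 and 8.25 in the low livers, with no overlap, and 10 of the 12 were above background in all livers. Dnase1l3 was at 9.90 to 10.45 in the high and 9.20 to 9.81 in the low livers (difference 0.63, SE 0.13, adjusted p = 0.0834), Cd36 differed by 0.98 (adjusted p = 0.222) and Fcgr2b by 0.43 (adjusted p = 0.277). All 11 markers of vascular endothelium were above 0 as well (median 0.20), with Sox17 at 0.53 (adjusted p = 0.248), and their mean level overlapped, at 7.06 to 7.26 and 6.61 to 7.15.

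Cholangiocyte markers had the opposite sign in 9 of 10 (median -0.51), but their mean level overlapped widely, at 6.21 to 7.44 in the high and 6.38 to 7.63 in the low livers. Spp1 differed by -0.48 (adjusted p = 0.199), Krt18 by -0.78 and Krt8 by -0.69, and both keratins, which hepatocytes also make, differed by -0.03 in vehicle rats. Krt7, Cldn4 and Cftr were below background in all 10 livers. Markers of macrophages (15 of 17 above 0, median 0.11), stellate cells and myofibroblasts (4 of 18, median -0.09), T and NK cells (15 of 19, 0.05), B and plasma cells (5 of 10, 0.00), neutrophils and mast cells (9 of 12, 0.25) and erythroid cells (4 of 7, 0.03) held no gene that passed. The endothelial values moved with the clock genes across the groups, and their part in the differences was not tested.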

How the data were processed

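RNA of whole liver (150 ng) from each rat was hybridised to an Affymetrix rat 3' array. The values the authors deposited were log2 signals per probe set that had already been normalized. Tools listed by the submitters' processing notes were R 3.4.0, limma 3.38.2 and affy 1.56.0, and frozen-RMA is described in the study's methods for its collected public arrays. The arrays listed there for its expression distributions are human and mouse, and these rat livers were scored as expressed or not by Affymetrix MAS detection calls. Whether frozen-RMA gave the deposited signals of these livers is not stated there. Arrays give no read depth, and their number limits the precision.

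Of 31099 probe sets, 20826 had a single gene symbol in the platform annotation (57 control, 436 with several symbols and 9780 without one were left out), and each of 14217 genes was represented by its most variable probe set. Bmal1, which set the groups, was left out of the test, which left 14216. High and low livers were compared with limma 3.58.1 (lmFit and eBayes, R 4.3.3), with treatment as a covariate and Benjamini-Hochberg adjustment over all genes, and a call is an adjusted p under 0.05. The p-values measure an association with the Bmal1 signal over these rats. Single genes also had an exact two-sided permutation of the group labels within treatment (100 assignments). A gene was above background in an array when its signal exceeded the 95th percentile of 32 probe sets of chemosensory receptors, 5.46 to 5.83. The limma step was tested on simulated data. By rule, the text names the clock genes and clock outputs, the 15 genes per direction of smallest p among calls whose groups did not overlap, and up to 3 members of each other list by p. The groups, lists and rule were chosen with earlier results of these data known. The ER and Golgi lists, the other calls and further genes named outside the rule were chosen after their values were seen. Dim probe sets, normalization, array weights, the variance prior, the covariate, the group definition, the replicate block and left-out rats were varied. Promoter windows came from RefSeq tables (GRCr8).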

Additional observations from a re-analysis of the deposited data

Results flagged for a closer look

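A liver lay far from the other 4 of its Bmal1 group for 5 of the 99 genes whose differences are given, out of 198 groups of 5 checked by Dixon's ratio against 0.71. Chance flags about 1 in 20 groups. Vehicle rat 1 was at 4.50 for Npas2, where the nearest other high liver was at 7.29. The same rat was at 11.22 for Insig2 (nearest other high liver 11.91) and at 11.41 for Fdx1 (nearest 11.79). CVX-060 rat 5 was at 9.93 for Nfil3 (nearest other low liver 10.26). Vehicle rat 4 was at 6.27 for Bhlhe41 (nearest other low liver 6.02).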

How the results depend on the processing

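The counts of calls depended on the settings. The sign of the calls was nearly fixed in advance, because they had been chosen on the same livers. Against 24 higher and 18 lower genes, the fit gave 37 and 28 without dim probe sets, 34 and 35 with array weights, 5 and 7 without both vehicle rat 2 and CVX-060 rat 5, 0 and 2 in vehicle rats alone, and 72 and 116 in CVX-060 rats alone. With single rats left out in turn, 0 to 112 genes were higher and 1 to 233 lower. The probe set of highest mean, every probe set, quantile normalization, array medians set to 0, a trended prior, no covariate and the Bmal1 level as a number gave 19 to 30 higher and 17 to 25 lower genes. The interaction count was 0 except without vehicle rat 1 (441) and without CVX-060 rat 4 (1), so leaving out a rat gave 0 to 441, and it was not run within a treatment, without the covariate, with the Bmal1 level as a number, without both rats or with the block. The exact test gave its smallest p to 41 of the 42 genes with the probe set of highest mean and to all 42 under both other normalizations, alternatives chosen after seeing the data. All 42 calls kept their sign in each of these settings that gave a single value per gene; other dim probe sets of Dipk2a, Kif26b, Pnrc1 and Zbtb2 had the other sign.

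The labels number the rats 1 to 5 in both treatments, but no source says that a number marks a shared animal, litter or day, and the high and low groups share number 3 alone. With the number as a random replicate block (consensus correlation -0.112), 57 genes were higher and 51 lower, and all 42 calls were kept. Because the groups share number 3 alone, this fit cannot separate the Bmal1 group from whatever the number stands for.

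Of the genes named, 4 that had not passed turned sign. Hlf was at 0.27 with array weights, 0.31 without vehicle rat 2 and CVX-060 rat 5, 0.42 in CVX-060 rats alone and between -0.28 and 0.39 with single rats left out. Per1 was at -0.025 without those 2 rats and between -0.014 and 0.063 with single rats left out. Mreg was at -0.079 and Bhlhe40 at -0.063 in vehicle rats alone, and Bhlhe40 was between -0.011 and 0.35 with single rats left out. The cause was not tested. Signals near background, as for Per3, Nr1d1, Bhlhe41, Kif26b, Kcnj15, Poteml2, Zfp862 and the low livers of Npas2, limit what can be said of their size.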

Other observations

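Genes of the angiopoietin and VEGF systems, to which the target of CVX-060 belongs, were compared by Bmal1 group as well. Of 15 measured, 5 were below background in all livers. A difference above 0 was found in 11 of the 15 (median 0.08), and 0 passed in limma. The 5 with an unadjusted p under 0.05 were all higher in the high-Bmal1 livers, against 5.66% of all genes. They were Kdr, the main VEGF receptor (0.44, adjusted p = 0.373), Ptprb, the phosphatase of the Tie2 receptor (0.39, adjusted p = 0.248), Tek, which codes for Tie2 (0.34, adjusted p = 0.311), and the ligands Vegfa (0.33, adjusted p = 0.304) and Vegfb (0.21, adjusted p = 0.381). Kdr, Ptprb and Tek are made by endothelium, whose markers were also above 0.

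Interferon response genes split, with 10 of 24 above 0 (median -0.07) and 0 past the adjusted p. Irf1, an interferon-induced transcription factor, differed by 1.97 (SE 0.57, adjusted p = 0.191) and the chemokine Cxcl10 by 2.89 (SE 1.01, adjusted p = 0.269), while Stat2, which carries the interferon signal to the nucleus, differed by -0.53 (SE 0.12, adjusted p = 0.126). Extracellular matrix genes had 15 of 38 above 0 (median -0.02). Of the 38, 1 had an unadjusted p under 0.05, against 12.7% of all genes. It was Timp1, an inhibitor of matrix proteases (0.73, adjusted p = 0.311). Of 34 cell cycle genes 24 were below 0 (median -0.10), and Cdkn1a was the 1 that passed, against 0.295% of all genes. Acute phase proteins (median -0.01 over 24 genes), hypoxia targets (0.01 over 19) and nuclear receptors (0.07 over 27) held no gene that passed.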
